A study of Drosophila melanogaster with 2 samples.

Results

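In Drosophila melanogaster embryos that carried a tagged CG9215 protein, 259 autosomal binding peaks had their summit at, or just downstream of, a transcription start site. They were taken from the conservative list, the authors' list of peaks called across both replicates, as the autosomal peaks whose summit lay within 500 bp of an annotated start site and at or downstream of the nearest one on the strand of its gene. Summits between the start sites of a divergent gene pair at most 1000 bp apart were left out. The 259 peaks, called downstream peaks here, were part of 1562 autosomal promoter peaks, of 2925 autosomal peaks and of 3718 peaks in all. The rule used position alone and no measured signal. CG9215 encodes a zinc finger protein of the C2H2 kind, and the fly strain expressed it from a transgene as a fusion with enhanced green fluorescent protein (eGFP). Whole embryos aged 0 to 24 h were studied by chromatin immunoprecipitation and sequencing (ChIP-seq) with an antibody against the fluorescent tag, after sonication to a labelled size range of 200 to 800. All samples form 1 group, with 2 biological replicates from different biosamples. Embryos of all stages and cell types in this span were pooled, and neither a control library nor an immunoprecipitation from untagged embryos was analysed here. Only peaks were analysed, without read counts, and library depth is therefore unknown.

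The start site is the base at which RNA polymerase II begins a transcript, and the core promoter around it holds short sequence elements. The initiator spans the start itself, the TATA box lies upstream of it and the downstream promoter element (DPE) follows it, and these elements are best known from developmentally regulated fly genes. Many broadly active fly promoters lack them and carry other elements, such as the DNA replication-related element (DRE), bound by the factor Dref, and Motif 1, bound by M1BP. Fly genes often lie head to head with close start sites on opposite strands, so that one position can be downstream of one gene's start and upstream of another's.

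The start sites that these peaks followed rarely held an initiator, which was searched on the strand of the gene as TCA followed by G or T, then a T and a pyrimidine, with its first base from -5 to 5 bp of the start. To show this, 30 bases from -15 to 14 bp around the start are printed for 3 strong downstream peaks with an initiator and 6 without one. Sequences are from the RefSeq copy of Release 6, the assembly that the labels name dm6, and read 5′ to 3′ along the gene. Capitals mark the initiator match in the first 3 and the annotated start base in the other 6. In these first 3 the match begins past the start base, within the searched range, and does not span it. The match at Trl, not printed here, does span the start base.
Fer2LCH (chr3R:30388261-30388290, plus strand): tgcacgttcgaaggggggaTCAGTCaccca
Ptp36E (chr2L:18184993-18185022, minus strand): attttactgtttaaaaTCATTTgaaaaaaa
Sbat (chr2L:2878329-2878358, plus strand): tgtgcattcattttgcaaTCATTTccttta
lncRNA:CR43130 (chr3R:8820755-8820784, plus strand): tgtatacatcgaaatAtgtttaggcaactc
velo (chr3L:6752738-6752767, minus strand): ttgttgttccttcgcCactcttcttcttct
Chro (chr3L:22878970-22878999, minus strand): cttaaaaccgtgcaaGcattgaaacccgcg
mRpL23 (chr3L:2373664-2373693, minus strand): tacacgggtgtaggtAacagttctttgaga
PNPase (chr3R:31404726-31404755, minus strand): aaatgggcattctagTtttgagataactga
Elp5 (chr3L:2257441-2257470, plus strand): ccagggatgcgagaaTcatactgtagctgc
The last 6 belong to 6 of the 9 downstream peaks of highest signal, and the first 3 rank lower.

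Most summits lay close behind the start site, and most of them in a 5′ UTR. Their median position was 86 bp downstream, with quartiles of 34.5 and 218 bp. Of the 259 summits, 88 (34.0%) lay within 50 bp and a further 57 from 51 to 100 bp. The 694 autosomal peaks upstream of a start site at promoters with no divergent pair, called upstream peaks here, were farther out, with a median of -180 bp and 60 (8.65%) within 50 bp. The rule fixed the side of the start but not this distance, which was not tested.

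**Figure D1:**
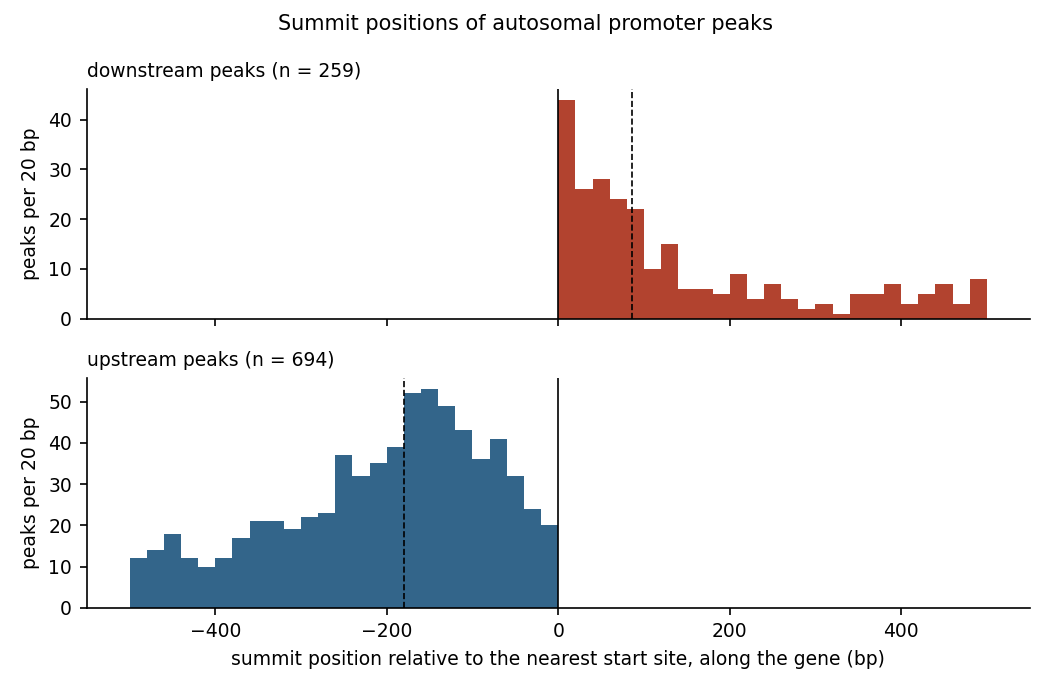
Summit positions of the 259 downstream peaks (upper panel) and the 694 upstream peaks (lower panel) relative to the nearest start site, in bp along the gene and counted per 20 bp. The solid line marks the start site and the dashed line the median, 86 bp for downstream and -180 bp for upstream peaks.

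By annotation of the nearest gene, 150 summits (57.9%, 95% Wilson interval 51.8 to 63.8) lay in a 5′ UTR and 54 (20.8%, 16.3 to 26.2) in an intron. Another 27 (10.4%) lay in an exon of a non-coding gene, 22 (8.49%) in a coding exon, none in a 3′ UTR and 6 (2.32%) past the end of a short gene. The signal of a peak is the authors' own value, whose scaling is not stated, and it serves here to order peaks of the same list. Summits in coding exons had the lowest median signal, 83.6, with 150 at Got2 as the highest, and the highest G+C content in a window of 50 bases to either side of the summit, 58.9% ± 7.91 (SD, n = 22). Summits in 5′ UTRs had a median signal of 163 and a G+C content of 38.6% ± 9.75 (SD, n = 150).

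The 259 peaks followed 254 distinct start sites of 254 genes, since 10 of them shared a start site with another downstream peak. Of the genes, 219 encode proteins, 27 are long non-coding RNA genes, 7 are antisense RNA genes and 1 is another non-coding RNA gene. They made up 1.86% of the 11749 autosomal protein-coding genes and 0.972% of the 3602 other autosomal genes. The share of promoter peaks that were downstream was similar on the 4 major arms. Downstream peaks were 63 of 359 promoter peaks on 2L (17.5%), 63 of 374 on 2R (16.8%), 61 of 373 on 3L (16.4%) and 72 of 455 on 3R (15.8%), with Wilson intervals that overlapped. Chromosome 4 had 1 promoter peak, which was not downstream. The authors' other lists gave similar shares, 17.5% in the other thresholded list for both replicates, 15.4% in the list of replicate 1 and 16.5% in that of replicate 2, against 16.6% (14.8 to 18.5) in the conservative list.

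A large part of the downstream peaks sat at head-to-head gene pairs, just past one of the start sites. For 119 of 259 summits (45.9%), another gene's start site lay within 500 bp with the summit upstream of it. In 114 of these, the other gene ran in the opposite direction, and in 5 both genes ran the same way. At the 114 head-to-head pairs, the start sites were a median of 105 bp apart, from 1 to 464 bp. The summit was a median of 57 bp inside the nearest gene and 184 bp upstream of the other start (-184 bp), which belonged to a protein-coding gene in 110 cases. A further 30 summits (11.6%) were upstream of a later start site of the same gene alone, and 110 (42.5%) were upstream of no annotated start site. These counts describe the rule as much as the peaks, because a summit between such start sites was left out as divergent, and they were not tested.

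Peaks upstream of another gene's start had a higher median signal than those upstream of no other start. The median signal was 175 for the 119 summits upstream of another gene, 174 for the 30 upstream of a later start of the same gene and 124 for the 110 upstream of none. Of the 119, 90 (75.6%, 95% Wilson interval 67.2 to 82.5) overlapped a thresholded peak in both replicates, against 58 (52.7%, 43.5 to 61.8) of the 110. Against all 694 upstream peaks, of which 494 (71.2%) passed in both, the 110 passed less often by 18.5 points (adjusted p of Fisher's exact test 2.68e-04). Their signal was also less often in the top 25% of autosomal peaks, 13.6% against 33.4% (adjusted p of Fisher's exact test 3.01e-05). This split was chosen after seeing the data, and the groups within it were not tested against each other.

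**Figure D2:**
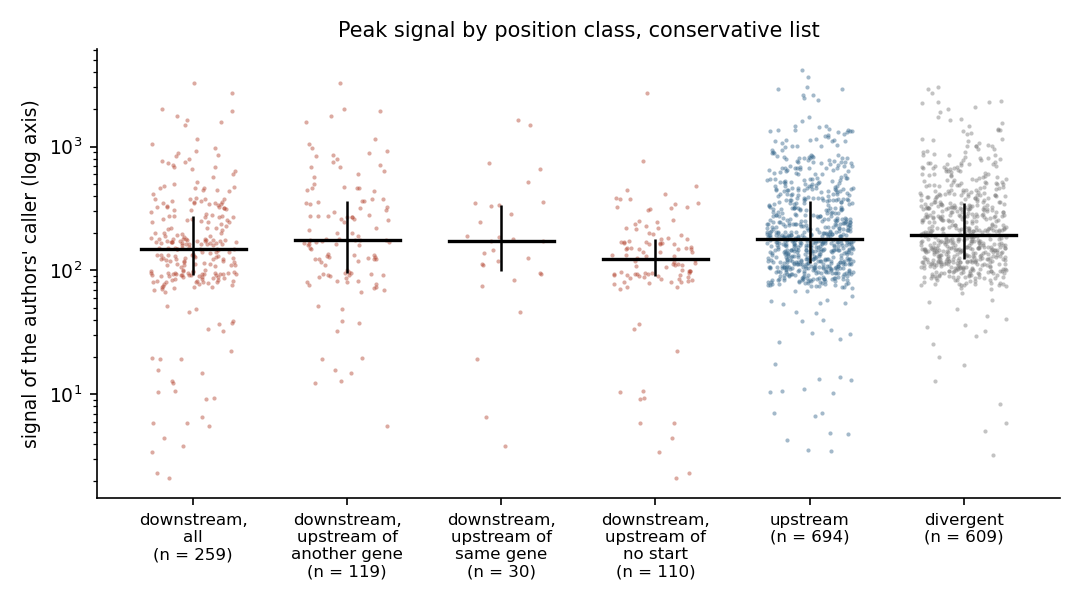
Signal of each autosomal promoter peak in the conservative list (log axis), for all 259 downstream peaks, for those also upstream of another gene's start, of a later start of the same gene, or of no start, and then for 694 upstream and 609 divergent peaks. Horizontal bars are medians and vertical bars span the quartiles; the median was 124 for downstream peaks with no other start, 178 for upstream peaks and 195 for divergent peaks.

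The strongest downstream peak, at the start of lncRNA:CR43130, had a signal of 3258 in the conservative list, of 1646 in replicate 1 and of 1629 in replicate 2. Its summit was 1 bp into this non-coding gene on 3R (8820546 to 8821025) and 89 bp upstream of the start of aqz on the other strand. These start sites were 88 bp apart, and a summit between them would have been left out as divergent. Next came a summit 381 bp past the start, in the 5′ UTR, of velo, which encodes a SUMO protease, on 3L (6752120 to 6752589), with 2714 in the conservative list, 1387 in replicate 1 and 1337 in replicate 2. This summit was upstream of no other start site. The replicates were almost equal at both sites.

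At asRNA:CR45928 on 2R (23850220 to 23850602) the signal was 2019 in the conservative list, with 1197 in replicate 1 and 830 in replicate 2. This summit was 98 bp upstream of eIF6, which encodes a factor of large ribosomal subunit assembly. Chro, which encodes a chromodomain protein of interbands, had 1927, with 1128 in replicate 1 and 809 in replicate 2, at 3L 22878704 to 22879097. Its summit lay 86 bp past the start, in the 5′ UTR, and 191 bp upstream of Ssl1, which encodes a subunit of the transcription factor TFIIH. Replicate 1 was the higher one at both.

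At the next peaks, too, replicate 1 was the higher one. The peak at mRpL23, a protein of the large mitochondrial ribosomal subunit, had 1761 (986 in replicate 1, 787 in replicate 2), 82 bp into the gene and 132 bp upstream of CG9004. GstE13, a glutathione S-transferase gene, had 1624 (1065 and 559 in replicates 1 and 2) and lay upstream of a later start of the same gene. CG8320 had 1585 (957 and 619), with the summit 127 bp upstream of Pex11ab, a peroxisome gene. PNPase, a mitochondrial RNA-degrading enzyme, had 1488 (872 and 624). Elp5, a subunit of the tRNA-modifying Elongator complex, had 1158 (673 and 496), 98 bp upstream of CG1275. The ratio of replicate 1 to replicate 2 was highest at GstE13 among the 25 strongest peaks, at 1.91.

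The remaining peaks of the 25 strongest had signals from 1056 down to 598. They were at pre-mod(mdg4)-E, a source of exons that are trans-spliced to mod(mdg4) transcripts, CG8892, CG8360, lncRNA:CR44149, tank, lncRNA:CR44209, CG9147, CG31612, Trmt6, CG18622, yki, CG11247, E(z), CG4497, SerRS and wmd. The peak at yki, the transcriptional coactivator of the Hippo pathway, had 712 (355 in replicate 1, 371 in replicate 2) and lay 28 bp inside yki, whose start was 272 bp from that of Gpat4. At E(z), the histone methyltransferase of Polycomb repressive complex 2, it had 685 (355 and 333), 105 bp upstream of Cnep1r2. At SerRS, a seryl-tRNA synthetase gene, it had 631 (346 and 290), with start sites of SerRS and CG17260 only 8 bp apart. The 25 were similar in position: 19 lay upstream of another gene's start, 18 of them head to head, and 20 within 100 bp of the nearest start. All 25 passed in both replicates. Their conservative signal was 0.974 to 1.01 times the sum of the replicates' signals, so it is no independent measurement.

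**Figure D3:**
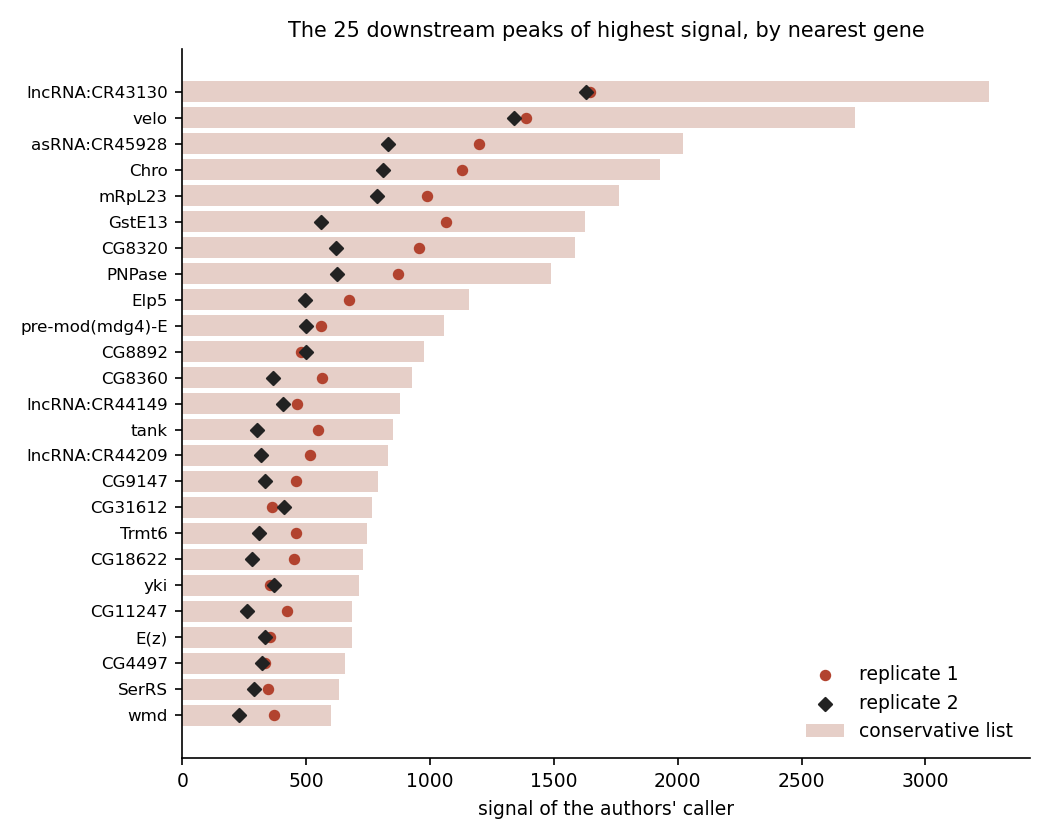
Signal of the 25 strongest downstream peaks, named by the nearest gene, in the conservative list (bars), in replicate 1 (circles) and in replicate 2 (diamonds). Replicate 1 was above replicate 2 at 22 of the 25, and the ratio ranged from 0.874 to 1.91.

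Downstream peaks, like autosomal peaks in general, were present in both replicates but passed the threshold there unevenly. A ranked peak of each replicate overlapped 257 of the 259. The signal of replicate 1 over that of replicate 2 had a median ratio of 1.12, against 1.07 for upstream peaks and 1.09 for all autosomal peaks, and lay within 2-fold of the autosomal median for 241 of 257 (93.8%). Pearson's r of log2 signal was 0.84 and Spearman's rho was 0.78 across these 257 peaks of the same 2 libraries, given as a description, since the list itself was selected for reproducible ranks and some peaks overlap. Of the 259, 167 (64.5%, 95% Wilson interval 58.5 to 70.1) overlapped a thresholded peak in both replicates. Another 42 (16.2%) did so in replicate 1 alone, 16 (6.18%) in replicate 2 alone and 34 (13.1%) in neither. Over all autosomal peaks, 59.3% passed in both, 19.3% in replicate 1 alone, 5.30% in replicate 2 alone and 16.1% in neither. Upstream peaks passed in both in 494 of 694 cases (71.2%), and the difference of -6.70 points (95% interval -13.5 to -0.129) did not pass the adjusted threshold (Fisher's exact test, p = 0.0486, adjusted over 5 properties 0.101). With 50% reciprocal overlap it was -9.08 points and passed (Fisher's exact test, adjusted p = 0.0318, with 2.68e-04 to 1.00 across the alternatives). In the stronger 50% of peaks by signal it was -0.0689 points (128 of 135 against 408 of 430) and did not pass.

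At a few peaks the values taken from the replicates were far apart. Replicate 2 was the higher one at p38a, a stress-activated kinase gene, with 43.5 in replicate 1 and 399 in replicate 2, and at CG3165, with 36.2 and 185. It was also the higher one at Ada2b, a subunit of histone acetyltransferase complexes (56.3 and 123), at Hat1, a histone acetyltransferase gene (85.4 and 175), and at lqfR (67.5 and 138). Replicate 1 was the higher one at Nubp2 (352 in replicate 1 and 13.6 in replicate 2), TTLL4B (595 and 97.6) and Sps1 (221 and 58.7). The same held for Cerk, a ceramide kinase gene (130.0 and 41.2), and Pde11, a phosphodiesterase gene (204 and 70.7). A value in a replicate is that of the overlapping ranked peak with the nearest summit, so at overlapping peaks it may belong to the neighbour. The conservative signal was under the higher replicate value at TTLL4B (19.4), Nubp2 (39.2), p38a (136), CG3165 (37.5), lqfR (69.7), Sps1 (76.0) and Pde11 (91.1). It was above that value at Ada2b (215), Hat1 (271) and Cerk (165). A stronger downstream peak at the same Sps1 start, with 377, had the same replicate 1 value of 221. In all, 20 of 259 downstream peaks had a signal under 20, against 16 of 694 upstream and 86 of 2925 autosomal peaks. A stronger conservative peak overlapped 19 of these 20, all 16 upstream ones and 85 of the 86. Another peak overlapped 52 of the 259 downstream, 93 of the 694 upstream and 409 of the 2925 autosomal peaks.

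**Figure D4:**
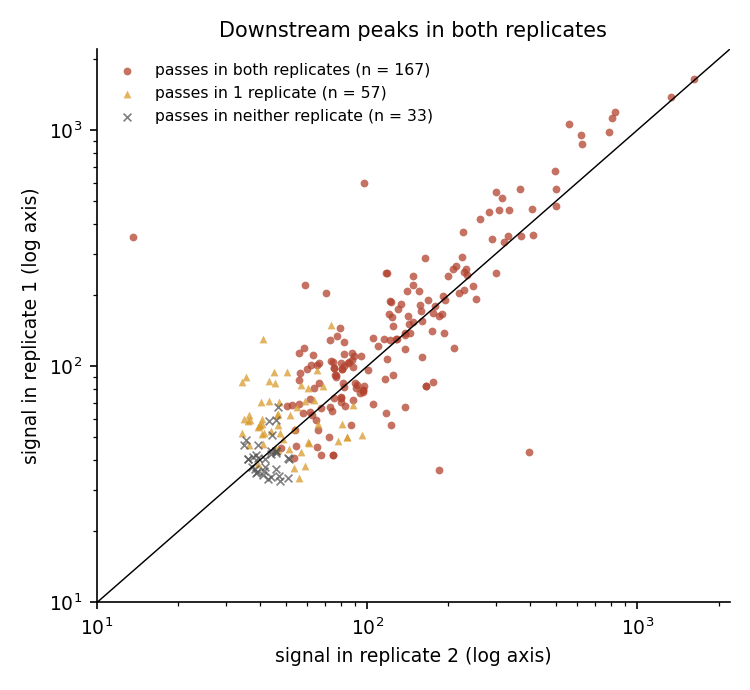
Signal of 257 downstream peaks in replicate 1 against replicate 2, both on log axes, with the line of equality. Circles are the 167 peaks that overlapped a thresholded peak in both replicates, triangles those that did so in 1 replicate and crosses those in neither; most points lie near the line, and the peaks that passed in neither are at the low end.

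Downstream peaks had a lower median signal than upstream peaks. The difference in the share of strong peaks did not pass the test in the main comparison but passed in some alternatives. The median signal was 150 for downstream, 178 for upstream and 195 for divergent peaks, with quartiles of 91.7 and 275 for downstream and 114 and 365 for upstream peaks. A signal in the top 25% of autosomal peaks, at or above 262, was reached by 70 of 259 downstream peaks (27.0%) and by 232 of 694 upstream peaks (33.4%). The difference was -6.40 points (95% interval -12.6 to 0.253, adjusted p of Fisher's exact test 0.101). With only the strongest peak of each run of overlapping peaks kept, it was -5.16 points (Fisher's exact test, adjusted p = 0.202). Without replicate 1 it was -11.1 points and passed (Fisher's exact test, adjusted p = 0.00660), and without replicate 2 it was -4.20 points and did not (0.556). Among the 25 strongest conservative peaks of the series 2 were downstream and among the 100 strongest 10. Within 51 to 100 bp of the start the median signal was highest, 174 for 57 downstream peaks, and it was lowest between 200 and 300 bp, 111 for 26 peaks. No trend was tested. The nearest gene had several annotated start sites for 158 of 259 downstream peaks (61.0%) and 392 of 694 upstream peaks (56.5%), a difference of 4.52 points (-2.55 to 11.4, adjusted p of Fisher's exact test 0.264). Without replicate 1 this difference was 11.2 points and passed (Fisher's exact test, adjusted p = 0.00932), and without replicate 2 it was 6.89 points and did not (0.358).

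With all distances pooled, the sequence at the summits was richer in G+C than at upstream peaks, but within 100 bp of the start it was poorer. The summit windows held 39.0% ± 11.8 G+C (SD over 259 downstream peaks), against 34.6% ± 10.4 (SD over 694 upstream peaks) and 31.3% ± 9.41 (SD over 609 divergent peaks). Windows above the autosomal median G+C of 32.7% made up 66.4% of downstream peaks (172 of 259) and 50.1% of upstream peaks (348 of 694). The difference was 16.3 points (95% interval 9.25 to 22.9, adjusted p of Fisher's exact test 3.84e-05). It was 2.97 points in the thresholded list of replicate 1 alone, without replicate 2, and did not pass there (Fisher's exact test, adjusted p = 0.608, with 4.64e-11 to 0.608 across the alternatives), and 12.8 points without replicate 1. Distance moved with it: G+C averaged 40.2% for the 88 downstream and 43.9% for the 60 upstream peaks within 50 bp, and 38.3% for the 47 downstream peaks and 32.7% for the upstream peaks beyond 300 bp. The part of distance in the difference was not tested.

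Start sites of downstream peaks had an initiator far less often than those of upstream peaks. It was found at 12 of 254 start sites of downstream peaks (4.72%) and at 135 of 649 start sites of upstream peaks (20.8%), each start site counted once and those of both classes left with the downstream peaks. The difference was -16.1 points (95% interval -19.9 to -11.6, adjusted p of Fisher's exact test over 7 elements 1.46e-09). Over all 19677 autosomal start sites the share was 10.9%, so that downstream peaks were below and upstream peaks above it. Start sites of divergent peaks had it in 27 of 605 cases (4.46%). Start sites followed by an unselected peak, a ranked peak that overlapped no thresholded peak, had an initiator in 717 of 5605 cases (12.8%).

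**Figure D5:**
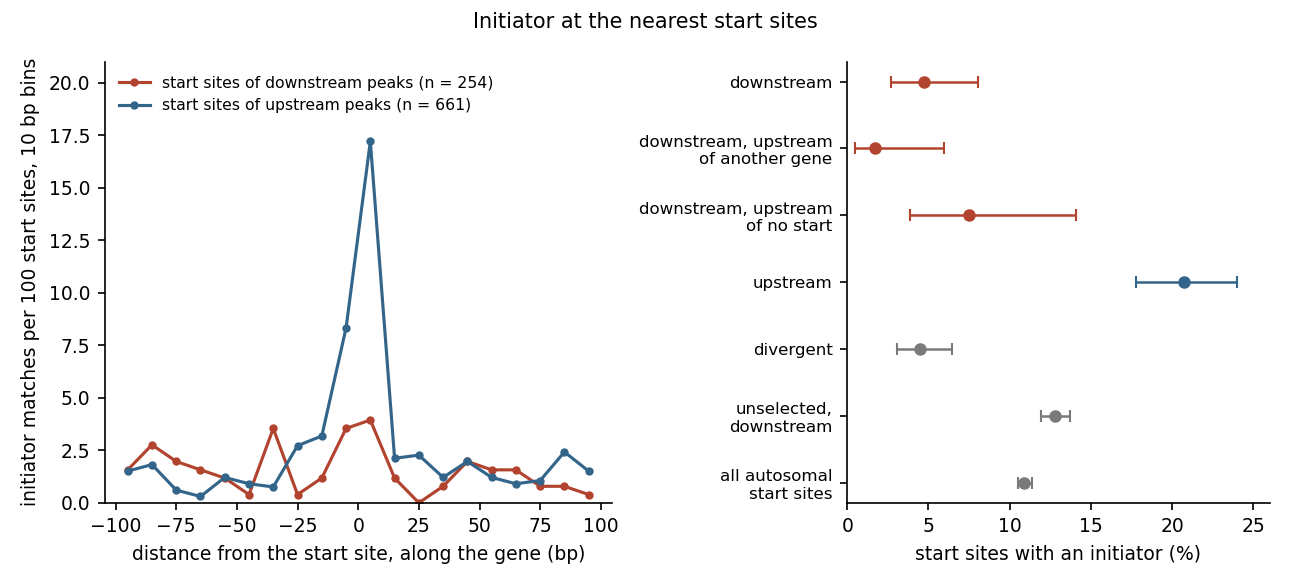
Left, initiator matches per 100 start sites in 10 bp bins along the gene, for 254 start sites of downstream and 661 of upstream peaks. Right, the share of start sites with an initiator from -5 to 5 bp, with 95% Wilson intervals, for downstream peaks, their subsets, upstream, divergent and unselected downstream peaks and all autosomal start sites; downstream peaks reached 4.72% and upstream peaks 20.7% with start sites of both classes kept.

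The 12 start sites with an initiator belonged to Fer2LCH, Trl, Ptp36E, Sbat, lncRNA:CR44366, Naam, Gli, Srpk79D, Lcp1, elgi, CG30479 and Cht7, all listed because they are the whole of a small count. Fer2LCH encodes the ferritin light chain, lies head to head with the heavy chain gene Fer1HCH, and had a signal of 569 (249 in replicate 1, 299 in replicate 2), 259 bp into the gene. Trl, which encodes GAGA factor, had 383 (241 and 148) at 136 bp, and Ptp36E, a tyrosine phosphatase gene, had 333 (139 and 192) at 45 bp. Lcp1, a larval cuticle protein gene, had 88.7 and passed in neither replicate. By context, the initiator was found at 2 of 118 start sites of summits upstream of another gene (1.69%) and at 8 of 107 of those upstream of no other start (7.48%, 95% Wilson interval 3.84 to 14.1). The other genes' start sites in the first of these groups had it in 3 of 118 cases (2.54%).

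The initiator was also compared at like distances from the start. Within 100 bp, 4 of 145 start sites of downstream peaks (2.76%) and 9 of 153 of upstream peaks (5.88%) had one, a difference of -3.12 points (95% interval -8.32 to 1.83) that did not pass (adjusted p of Fisher's exact test 0.258). Beyond 100 bp, 8 of 111 (7.21%) and 131 of 513 (25.5%) had one, a difference of -18.3 points (-23.6 to -11.0, adjusted p of Fisher's exact test 3.02e-05). The split by distance was chosen after seeing the data, and the change of the difference with distance was not tested.

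Matches to the DPE pattern also were less common at start sites of downstream peaks. The pattern was a purine, G, A or T, a pyrimidine and any base but T, from 22 to 32 bp past the start. An initiator was not required, and whether matches to this short pattern are working elements was not tested. A match was found at 44 of 254 start sites of downstream peaks (17.3%) and 195 of 649 of upstream peaks (30.0%). The difference was -12.7 points (95% interval -18.2 to -6.57, adjusted p of Fisher's exact test 2.68e-04), and 23.5% of all autosomal start sites had a match. It was -6.31 points and did not pass with divergent peaks added to the comparison (adjusted p of Fisher's exact test 0.112). It was -9.70 points for downstream peaks upstream of no other start (Fisher's exact test, adjusted p = 0.174). Within 100 bp a match was found at 12.4% of the start sites of downstream and 19.6% of those of upstream peaks (adjusted p of Fisher's exact test 0.153). Beyond 100 bp the shares were 23.4% and 33.1% (adjusted p of Fisher's exact test 0.110), so that the difference passed in neither range taken alone. Across the alternatives, Fisher's exact test gave an adjusted p of 5.43e-05 at the lowest.

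The other 5 of the 7 elements were not called, so that 28.6% of the elements tested differed. The DRE, TATCGATA on either strand within -100 to 50 bp, was at 18 of 254 start sites of downstream peaks (7.09%) and 24 of 649 of upstream peaks (3.70%), a difference of 3.39 points (0.292 to 7.41, adjusted p of Fisher's exact test 0.0820). It passed in the list of either replicate alone, with 22 of 208 downstream (10.6%) and 19 of 530 upstream start sites (3.58%) without replicate 1, and 19 of 221 and 23 of 629 without replicate 2 (Fisher's exact test, adjusted p = 0.00172 and 0.0142). Divergent peaks had it at 83 of 605 start sites (13.7%) and all autosomal start sites in 4.81% of cases. Among downstream peaks, 14 of the 18 were at summits upstream of another gene (11.9% of 118), and 3 at those upstream of none (2.80% of 107). The TATA box, TATAAA or TATATA from -40 to -20 bp, was at 5.91% and 4.93% of the start sites of downstream and upstream peaks, against 8.65% of all, and Motif 1 at 3.94% and 2.93%, against 2.64% of all. The TCT element, CTTT between pyrimidine pairs, known from ribosomal protein genes, was at 0.787% and 1.69%, against 0.661% of all, and Motif 6 at 0.394% and 1.08%, against 1.19% of all.

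Within 50 bases of the summit, none of 16 motifs differed between downstream and upstream peaks (0% called, Fisher's exact test with Benjamini-Hochberg adjustment), and 2 had an unadjusted p under 0.05. These were the E-box CAGCTG, in 18 of 259 downstream (6.95%) and 22 of 694 upstream windows (3.17%), and Motif 5, which contains it, in 4 (1.54%) and 1 (0.144%), both with an adjusted p of Fisher's exact test of 0.168. The E-box passed in the other thresholded list (23 of 286 against 24 of 716, Fisher's exact test, adjusted p = 0.0413) and with divergent peaks added to the comparison (18 of 259 against 39 of 1303, adjusted p = 0.0434). Of all autosomal windows 3.62% held this E-box and 0.342% Motif 5. GAGAGAG, bound by GAGA factor, Motif 6 and the Zelda word CAGGTAG were in none of the 259 downstream windows, and in 0.684%, 0.239% and 0.444% of all. The E-box CACGTG, the CTCF word AGGNGGC and the AP-1 word TGANTCA were in 0.386%, 3.47% and 1.93% of downstream windows, and in 0.821%, 3.18% and 2.60% of all. In windows of 100 bases to either side 4 motifs passed. Motif 7 was more common at downstream peaks (31 of 259 against 46 of 694). GAGAGAG (3 against 32), the homeodomain word TAATTA (28 against 124) and the GATA word, GATA after A or T and before a purine (73 against 259), were less common. Each had an adjusted p of Fisher's exact test of 0.0429.

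Against unselected ranked peaks in the same position, 9 of 16 motifs differed (56.2% called), and G+C content differed with them. The 6683 unselected windows held 50.5% ± 8.58 G+C (SD), against 39.0% at downstream peaks, and had a median signal of 23.6 and a median position of 257 bp. The BEAF word CGATA, bound by BEAF-32 and contained in the DRE, was in 52 of 259 downstream windows (20.1%) and 752 of 6683 unselected ones (11.3%, adjusted p of Fisher's exact test 9.86e-04), and in 15.8% of all autosomal windows. Motif 7 was in 11 (4.25%) and 75 (1.12%, 0.00258) and the DRE in 5 (1.93%) and 17 (0.254%, 0.00348). Motif 7 was in 2.29% of all autosomal windows and the DRE in 1.85%. Motif 1, Motif 5, the homeodomain, GATA and TCT words were also more common than in unselected windows (0.479%, 0.342%, 9.68%, 20.1% and 10.3% of all). The Tramtrack word AGGAT was less common, in 31 of 259 downstream and 1257 of 6683 unselected windows (adjusted p of Fisher's exact test 0.00982), and in 10.1% of all. With unselected windows of the same G+C content, 255 of each, no motif was called, and Fisher's exact test gave an adjusted p of at least 0.993 for each of the 9. With 255 unselected windows in place of 6683, rare motifs could hardly be called, so the lost calls do not show what G+C accounts for. The difference went from 1.08 to 1.18 points for Motif 1, 1.41 to 1.18 for Motif 5 and 3.12 to 2.35 for Motif 7. It went from 1.68 to 0.784 for the DRE and 8.82 to 3.53 for the BEAF word. It changed sign for the Tramtrack, homeodomain, GATA and TCT words. Whether the protein was absent at unselected peaks is not known.

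The DRE words at summits of downstream peaks are printed for 4 genes, with the word in capitals, because they lie close to the start in 3 of them. The word centre was at -25 bp of the start of U2af38, a splicing factor gene, -7 bp of mTerf5, a mitochondrial transcription factor gene, and -1 bp of mRpS18B, a mitochondrial ribosomal protein gene, and 258 bp inside cnc, a stress-response transcription factor gene.
U2af38 (chr2L:294692-294719, minus strand): aaacactaaaTATCGATAactaatcatc
mTerf5 (chr3R:18223675-18223702, minus strand): ttgccggccgTATCGATAgttgattacc
mRpS18B (chr2L:20097240-20097267, minus strand): cccctgaatgTATCGATAgtcatgtatc
cnc (chr3R:23190147-23190174, minus strand): tacagtgcacTATCGATAtggaggaccc
The signals of these peaks were 467 at U2af38, 123 at mTerf5, 120.0 at mRpS18B and 120.0 at cnc, none of them among the 25 strongest.

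A word search over the other peaks of the series gave a word about as common in downstream as in upstream peaks. The 8-base word most enriched in autosomal conservative peaks other than these, over unselected peaks, was TTTAAAAA. It was in 21 of 259 downstream windows (8.11%), 55 of 694 upstream windows (7.93%) and 7.21% of all autosomal windows, a difference of 0.183 points from upstream peaks (95% interval -3.36 to 4.53, adjusted p of Fisher's exact test 0.894). The upstream peaks helped to choose the word and the downstream peaks did not, so this is no even comparison. Unselected windows in the same position had it in 64 of 6683 cases (0.958%). Of the downstream peaks with this word, 3 are shown, those of ranks 5, 9 and 56 by signal, with the word in capitals, as printed or as its reverse complement TTTTTAAA.
mRpL23 (chr3L:2373622-2373649, minus strand): gtgatattatTTTTTAAAagtggtaaaa
Elp5 (chr3L:2257536-2257563, plus strand): gagttttaatTTTAAAAAtttacaaact
zf30C (chr2L:9758404-9758431, plus strand): gttttttcatTTTTTAAAgtgtacttaa
Since the word holds no G or C, the search was repeated after seeing the data with unselected windows of the same G+C content. The DRE word TATCGATA then led, in 1.84% of the other autosomal peaks, 0.279% of unselected windows and 1.93% of downstream peaks.

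Among the 500 strongest autosomal peaks outside the downstream class, a word around CATTGCC led the same search, CATTGCCA in 24 of 500 (4.80%) against 11 of 2342 unselected windows (0.470%). The core CATTGCC was in 7 of 259 downstream windows (2.70%), 30 of 694 upstream windows (4.32%), 11 of 609 divergent windows (1.81%) and 119 of 6683 unselected downstream windows (1.78%). It was chosen after its values were seen, and no test is given. In the strongest 25% of each class it was in 3 of 64 downstream (4.69%) and 14 of 173 upstream windows (8.09%). The 3 strongest downstream peaks with it are shown, because one of them, velo, is the second strongest of all 259, with capitals for the word or its reverse complement GGCAATG.
velo (chr3L:6752348-6752374, minus strand): cgcgtttcgtCATTGCCagataaaata
Trmt6 (chr2L:6562162-6562188, minus strand): atgtatttttGGCAATGattattactt
zf30C (chr2L:9758336-9758362, plus strand): accagggctgCATTGCCaccctcgagc
The word centre lay 391 bp past the velo start, 114 bp past that of Trmt6, a tRNA methyltransferase subunit gene, and 7 bp past that of zf30C, a zinc finger gene. The signals were 2714, 745 and 323.

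The genes behind these start sites were spread over many functions. Of 28 gene lists, 16 had at least 1 member as the nearest gene of a downstream peak, beside 1.86% of all autosomal protein-coding genes. Chromatin and zinc finger factors had the highest shares. Of 45 genes of zinc finger and architectural factors 6 (13.3%) had one: Chro at 1927, Trl at 383, Dref, which encodes the factor that binds the DRE, at 164, and pita, Zif and Su(var)3-7 at 112, 93.3 and 19.3. The 40 genes of the Polycomb and trithorax groups included 4, E(z) at 685, Trl at 383, Su(z)12, a further subunit of Polycomb repressive complex 2, at 148, and lolal at 120.0. These are counts of few genes, and no list was tested.

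Signalling genes had 4 of 53 (7.55%), among them 3 of the Hippo growth control pathway: yki at 712, mats, which encodes an activator of the Warts kinase, at 195, and hpo, the pathway's upstream kinase, at 110.0. Translation factors had 3 of 51 (5.88%), with the initiation factor subunit genes eIF3m at 179 and eIF3h at 168, and eEF1alpha1, the elongation factor that delivers tRNA to the ribosome, at 2.34. Ribosomal protein genes had 3 of 72 (4.17%), RpL26 at 339, RpL7 at 318 and RpL19 at 123, while 21 of the 72 (29.2%) were the nearest gene of an upstream or divergent peak. Mitochondrial ribosomal protein genes had 2 of 62 (3.23%), mRpL23 at 1761 and mRpS18B at 120.0. Of all autosomal protein-coding genes 10.5% were the nearest gene of an upstream or divergent peak.

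Single members came from several complexes. Nup98-96, a nuclear pore gene, had 439 (241 in replicate 1, 199 in replicate 2), U2af38 467 (219 and 246), SerRS 631, ATPsynE, an ATP synthase subunit gene, 175 (120.0 and 58.4), skd, a Mediator subunit gene, 91.8 (67.6 and 50.7) and bgcn, a germline differentiation gene, 148 (96.9 and 65.2). Cell cycle genes had 2 of 86, Dp, which encodes the dimer partner of E2f factors, at 198 and barr, a condensin subunit gene, at 161. Membrane traffic genes had 2 of 72, Rab14 at 88.4 and Sec63 at 14.9. No gene of the lists of the proteasome, RNA polymerase and general transcription factors, vacuolar ATPase, chaperones, DNA replication and repair, Hox and segmentation, dorsal-ventral and mesoderm, neurogenesis, histones, tRNAs, small nucleolar RNAs or small nuclear RNAs was the nearest gene. These lists are not complete, and a 0 covers their members alone. Among genes outside them, Prim1, a DNA primase subunit gene, was the nearest gene of a downstream peak at 91.4, and Nrx-1, which encodes the synaptic adhesion protein neurexin, at 348. Nmda1, a glutamate receptor gene, was so at 214 (these 3 were chosen after their values were seen). Of 574 microRNA entries 1 was, at 109. Long non-coding and antisense RNA genes had 34 of 2137 (1.59%), while 32 had an upstream or divergent peak. They supplied 4 of the 25 strongest peaks, where 222 of all 259 downstream peaks (85.7%) had a protein-coding nearest gene. These 4 summits all lay upstream of a head-to-head protein-coding gene, aqz, eIF6, brwl or Cyt-b5.

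The 500 bp limit cut through peaks of varied signal. Just inside it lay lncRNA:CR44868 at 500 bp with 130, DopEcR at 499 bp with 167 and CG31612 at 494 bp with 764. Just outside lay Mapmodulin at 502 bp with 667, Fbl6 at 506 bp with 382 and CG31523 at 507 bp with 174. The median signal of the 395 autosomal intron peaks beyond 500 and up to 2000 bp from a start site was 146. That of the 47 downstream peaks beyond 300 bp was 142.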

How the data were processed

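The authors deposited peak lists on dm6, thresholded or ranked by the irreproducible discovery rate (IDR), per the README files deposited with them. The peak caller and aligner, with versions, remain not given in the sources used here. Signal is the deposited value of the authors' caller. The deposited score, at least 830 in every thresholded list and at most 1000, and the −log10 of the global IDR in the ranked lists come from the authors' IDR step, and no test used them. The conservative list was the main one; its 37 peaks on unplaced scaffolds were not used.

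Start sites were 5′ ends of transcripts in Ensembl release 115 (BDGP 6.54; 18277 genes, with 5889 annotated transposable elements left out). Sequence came from the RefSeq copy of Release 6, which contains every peak. A peak passed in a replicate when it shared at least 1 bp with a thresholded peak there. Motifs were searched on both strands of summit windows, 50 bases to either side. Shares were compared with two-sided Fisher's exact tests and Benjamini-Hochberg adjustment over 5 properties, 16 motifs or 7 elements, with adjusted p under 0.05 called; intervals are Wilson or Newcombe 95%. They cover the sampling of peaks or start sites, not embryos, and overlapping peaks are not independent. Python 3.11.15, numpy 2.4.6, scipy 1.17.1 and statsmodels 0.14.6 were used, tested on simulated data.

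Named genes are those of the 25 strongest downstream peaks, the 3 strongest in each list, the 5 most unequal replicates at each end, members with the leading word, and those nearest to the 500 bp limit; others were chosen after their values were seen. The class, gene lists, motifs and tests were chosen with earlier results of these data known. The gene lists were given no test.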

Additional observations from a re-analysis of the deposited data

How the results depend on the processing

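Values are downstream minus upstream in percentage points unless said otherwise. Depth is unknown, so what it limits cannot be given. The initiator difference kept its direction and its call in all alternatives that used both distance ranges, and so did both core elements in most. The size of the initiator difference varied, from -18.8 in the stronger 50% by signal to -8.26 with divergent peaks added. Of the 7 elements, 1 was called with divergent peaks added and 1 for downstream peaks upstream of no other start. Within 1000 bp 3 were called (Motif 1 in addition), and 3 in the list of either replicate alone (the DRE in addition). Passing in both replicates differed by -0.0689 in the stronger 50% by signal, not called. It became a called difference with 50% reciprocal overlap (-9.08), 1000 bp (-8.93), the other thresholded list (-12.4), divergent peaks added (-9.04), and, added after seeing the data, transposable elements as start sites (-8.47) or no other start (-18.5). A signal in the top 25% became one in the other list (-8.76), with divergent peaks (-8.58), with no other start (-19.8) and without replicate 1, and ranged from -11.1 to -4.20 without a replicate. G+C was no longer called in the stronger 50% by signal (9.06) and ranged from 2.97 to 12.8 without a replicate. Several start sites became a called difference within 250 bp (11.5), in the stronger 50% (14.1), with coding genes only (10.8), with divergent peaks (14.1) and without replicate 1, ranged from 6.89 to 11.2 without a replicate, and turned to -10.1 with no other start, not called. The leading word turned to -1.11 in the other list, -1.38 in windows of 100 bases to either side, -0.180 with divergent peaks, -0.398 at the same G+C, -0.153 with transposable elements and -1.56 with no other start, and ranged from -0.568 to -0.431 without a replicate, none called. The downstream share of promoter peaks was 21.5% within 1000 bp and 14% in the stronger 50%. Motifs called against upstream peaks were 1 in the other list (the E-box CAGCTG), 4 in windows of 100 bases to either side and 2 with divergent peaks (the E-box CAGCTG and the homeodomain word); against unselected peaks they were 5 within 250 bp, 2 in the stronger 50%, 0 at the same G+C and 0 with no other start. At the same G+C, Tramtrack turned to 1.57, homeodomain to -3.14, GATA to -1.96 and TCT to -1.18, and with no other start Motif 1 turned to -0.0748. The DRE, the BEAF word and Motifs 1, 5 and 7 kept their direction at the same G+C, where only 255 unselected windows were compared. The causes were not tested. No paired analysis was possible because there is 1 group.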
